A study of Mus musculus with 6 samples.

Results

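The genes of the DNA replication machinery were compared between Dicer mutant and control ureteric bud cells of the mouse kidney at E15.5. They are 47 genes chosen by name for their roles, with earlier results of these data known. The list holds the 6 subunits of the origin recognition complex, 3 licensing factors, the 6 MCM helicase subunits and 6 genes of helicase activation. It also holds 9 genes of the polymerases and primase, 6 of the sliding clamp and its loader, 3 of RPA, 3 of Okazaki fragment maturation and 5 of nucleotide supply. All 47 were measured, out of 19296 genes with a probe set of their own, and no filter on low values was applied. For a gene with several probe sets the brightest over the 6 arrays was used.

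The cells came from dissociated embryonic kidneys and had been sorted on YFP, and total RNA was hybridised to Affymetrix whole-transcript arrays, 3 for Dicer mutant and 3 for control kidneys. The mutant genotype is given as Dicerc/-; Hoxb7Cre; Rosa26YFP, read here as a conditional Dicer allele over a null one, with Cre under Hoxb7, a gene of the ureteric bud epithelium, and a YFP reporter of Cre activity. The control is labelled wild type, on the same mixed background. Since the control cells were sorted on YFP too, whether they carried the Cre and reporter transgenes is not stated, and Cre and the loss of Dicer cannot be told apart. The labels call the arrays biological replicates without saying whether each held a pool of embryos, so the p-values reflect the spread between arrays, whatever its source. Array medians lay between 7.47 and 7.54 on the log2 scale, and arrays correlated across probe sets with r of 0.996 to 0.998 within a group and 0.988 to 0.992 between groups.

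DNA replication starts when the origin recognition complex, Cdc6 and Cdt1 load the MCM ring onto DNA in G1 phase. In S phase, Cdc45 and the GINS complex join the ring to form the active helicase, primase and polymerase alpha begin each strand, and polymerases delta and epsilon extend them on the PCNA clamp that the RFC loader places. Many of these genes are transcribed at the entry into S phase under E2F factors. In the developing kidney the tips of the ureteric bud are known for rapid proliferation, while the trunks cycle less.

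Dicer1, the targeted gene, had 9.80, 9.72 and 9.64 in Dicer mutant cells, against 10.31, 10.38 and 10.25 in control cells (log2 RMA value). The mutant arrays were lower without overlap, with a log2 fold change of -0.59 (SE 0.06; limma, adjusted p = 0.0005), and a two-sided exact permutation test of 3 against 3 arrays gave p = 0.1, the smallest value possible. The position of the probes relative to the deleted exons is not given in the sources used here.

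Genes of the replication machinery were lower in Dicer mutant cells more often than higher, and by small amounts. Of the 47, 21 were lower, 1 (Dna2) was higher and 25 did not pass the test (limma over all genes, Benjamini-Hochberg adjusted p under 0.05). The 21 lower genes are 44.7% of the list, beside 13.9% of all genes called lower and 20.3% of the genes above the median brightness, where 46 of the 47 lay. The 1 higher gene is 2.13% of the list, beside 11.8% of all genes called higher and 19.3% of those above the median brightness. The called falls ran from Mcm6, at 88.7% of the control signal, to Gins2, at 72.5% of it. At an adjusted p of 0.01, 12 members were lower, beside 7.37% of all genes, and 1 was higher, beside 7.08% of them. In either direction 22 of the 47 were called, beside 25.8% of all genes and 39.6% of those above the median brightness.

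The median log2 fold change of the 47 genes was -0.14, beside -0.05 over all genes and -0.01 over the genes above the median brightness. Fold changes were below 0 for 36 of the 47 genes (76.6%), beside 61.7% of all genes and 52.2% of those above the median brightness. The mutant arrays lay wholly below the control arrays for 26 of the 47 members. This arrangement was found for 24.1% of all genes and for 3108 of the 9677 genes above the median brightness. They lay wholly above for 3 members, beside 18.3% of all genes and 2925 of these 9677. The mean level over the 47 genes, relative to the control mean of each gene, was -0.14, -0.12 and -0.16 on the mutant arrays and -0.02, -0.02 and 0.04 on the control arrays, so the groups did not overlap. Fewer cycling cells in the sort and less RNA of these genes in each cell cannot be told apart in such bulk samples.

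The number of lower members fell whichever array was left out. It was 13 without mutant replicate 1 and 13 without mutant replicate 3, and 15 to 19 when any of the other arrays was left out. A fit without an array has fewer values per gene. The count of all genes called lower fell as well, except without control replicate 3, where it rose. Whether the replication genes lost more calls than other genes was not tested. The median log2 fold change of the members stayed negative in each of these fits. The genes that were called lower in all 6 of these fits were 12: Cdc45, Gins1, Gins2, Gins3, Gins4, Pola2, Prim1, Rfc2, Rfc5, Rpa1, Tyms and Tk1. Dna2 was called higher in all 6. The other 9 lower genes, Orc6, Cdc6, Cdt1, Mcm2, Mcm6, Mcm10, Rfc4, Rpa3 and Fen1, lost the call in at least 1 of them.

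**Figure D1:**
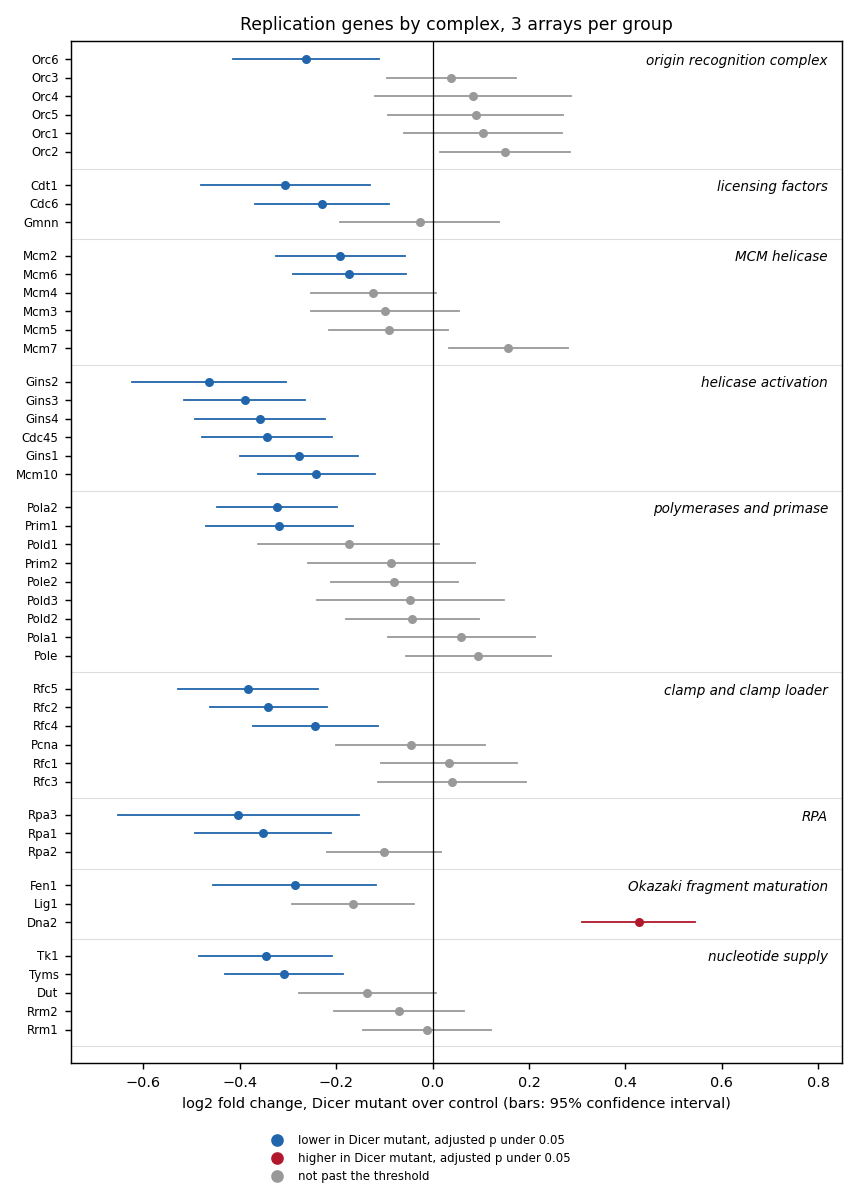
Log2 fold change of the 47 replication genes, Dicer mutant over control (points), with 95% confidence intervals (bars), sorted within each complex, from 3 arrays per group. All 6 genes of helicase activation lie left of 0 with blue points, whereas in the origin recognition complex only Orc6 does, and Dna2 is the only red point.

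Markers of the bud and of other cell types were read from the same fit. Of 15 ureteric bud markers, 8 were lower (53.3%) and 1 was higher (6.67%) in the mutant cells. Among genes above the median brightness, where all 15 lay, 20.3% were lower and 19.3% higher. The lower markers included 3 genes of the bud's tip. These were the GDNF receptor Ret and its co-receptor Gfra1 (log2 fold changes -0.35 each) and the tip signal Wnt11 (-0.60). The other lower markers were Hoxb7 (-0.40), Gata3 (-0.31), Krt8 (-0.25), Calb1 (-0.24) and Wnt7b (-0.22). The higher one was Wnt9b, a signal of the bud to the surrounding mesenchyme, with the largest change of the list (log2 fold change 1.42; limma, adjusted p = 2.23e-05). Without passing, Emx2 (0.11) and Lhx1 (0.15) were higher on every mutant array, and Pax2 (-0.07), Krt18 (-0.09) and Epcam (-0.10) were lower on every one. Lhx1 is also counted among the early nephron markers. The 15 markers were bright, with means of 8.24 to 12.90, and their summed linear signal was 48763 to 50249.8 in mutant cells and 55483 to 56377 in control cells. Of 34 measured markers of cap mesenchyme, early nephron, stroma, endothelium, blood and immune cells, 2 were higher and 5 lower, a called share of 20.6% beside 25.8% of all genes, and 24 lay below the median brightness. Their summed linear signal was 9566 to 10051 in mutant cells and 8874 to 9651 in control cells. Without Six2, the sum of the other 33 was 8294 to 8782 in mutant cells and 8756 to 9524 in control cells, so the higher sum rested on that gene. The largest difference among them was in Six2, the defining gene of cap mesenchyme, which was higher by a log2 fold change of 3.29 (limma, adjusted p = 3.29e-06). The summed signal of the 8 cap mesenchyme markers was 2269 to 2389 in mutant cells and 1216 to 1257 in control cells, and without Six2 it was 1000.2 to 1031.6 in mutant cells and 1060.1 to 1129.9 in control cells. Of the other 7 markers, Osr1 was lower (-0.67; limma, adjusted p = 0.0208) and 6 did not pass. Among those 6, Cited1 was higher on every mutant array (0.27; limma, adjusted p = 0.0503), and the groups overlapped for the remaining 5. RMA values hold no true 0, so none of the markers can be called absent. The part of tip and trunk cells, or of other cells, in the replication result was not tested.

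A shared feature of these genes that the list did not use was looked for in their promoters. The RefSeq table of promoter windows (build GRCm38.p6, 250 bases before to 50 after each annotated start) held 39 of the 47 genes. The E2F consensus was searched on both strands as TTTCCCGC, TTTCGCGC, TTTGCCGC or TTTGGCGC, matches being allowed to overlap. It was found in 15 of the 39 (38.5%), beside 3.52% of the 15160 array genes with a window and 2.26% of all 32851 windows. A CCAAT box (CCAAT on either strand) was present in 23 of the 39 (59.0%), beside 41.8% of the array genes. The CHR element of many mitotic genes (TTTGAA on either strand) was in 5 of the 39 (12.8%), beside 17.2% of the array genes. It was in 4 of 17 lower members with a window and in 1 of 21 that did not pass, a difference that was not tested. Among 18 mitosis genes with a window the CHR element was in 12, and the E2F consensus was in 1.

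The genes that hold the E2F consensus were mostly those that did not pass. Of 17 lower members with a window, 4 held it (Gins3, Cdt1, Cdc6 and Mcm6), and of 21 members that did not pass, 11 held it. Dna2, the higher member, had a window without it. Only 3 of the 6 genes of helicase activation had a window, so Gins1, Gins2 and Gins4, all called lower, could not be searched. In Cdt1 the match TTTGGCGC begins downstream, at position 33 with the annotated start as 1. In the other lower members it lies upstream, and their 250 bases before the start are shown because they are the called genes with this motif, with the matches in capitals.
Gins3 (chr8:95633309-95633558, plus strand): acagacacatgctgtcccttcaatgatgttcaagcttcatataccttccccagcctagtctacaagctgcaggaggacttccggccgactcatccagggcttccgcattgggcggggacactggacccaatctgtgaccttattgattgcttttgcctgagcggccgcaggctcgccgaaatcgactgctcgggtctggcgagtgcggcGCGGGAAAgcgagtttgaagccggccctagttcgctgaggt
Cdc6 (chr11:98907901-98908150, plus strand): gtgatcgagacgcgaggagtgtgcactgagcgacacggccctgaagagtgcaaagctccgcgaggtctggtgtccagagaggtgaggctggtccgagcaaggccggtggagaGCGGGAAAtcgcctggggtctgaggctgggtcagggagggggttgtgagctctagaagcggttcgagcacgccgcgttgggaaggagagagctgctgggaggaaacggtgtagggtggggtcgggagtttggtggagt
Mcm6 (chr1:128359706-128359955, minus strand): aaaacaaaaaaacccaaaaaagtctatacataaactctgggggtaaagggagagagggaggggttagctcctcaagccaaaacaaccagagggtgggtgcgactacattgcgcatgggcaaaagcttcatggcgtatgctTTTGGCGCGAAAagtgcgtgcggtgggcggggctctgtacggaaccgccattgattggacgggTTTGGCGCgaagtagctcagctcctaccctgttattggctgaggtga
Gins3 and Cdc6 each carry 1 match, on the opposite strand, and Mcm6 carries 3, of which 2 overlap. Such a match describes letters in a window and not binding by a factor.

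**Figure D2:**
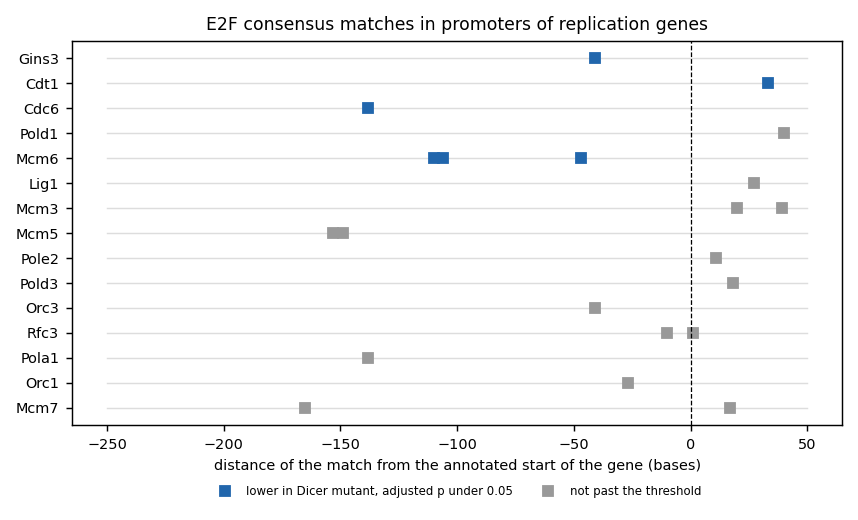
Position of each E2F consensus match (squares) relative to the annotated start of the gene (dashed line), for the 15 replication genes with a match, ordered from the most negative to the most positive log2 fold change. The 21 matches lie at positions -165 to 40 relative to the start, and 4 of the 15 genes are blue, that is, called lower in Dicer mutant cells.

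In the origin recognition complex, which marks the sites where replication can start, a single subunit was called. Orc6 had 10.01, 9.98 and 9.89 in Dicer mutant cells, against 10.13, 10.26 and 10.29 in control cells (log2 RMA values). The groups did not overlap, and the log2 fold change was -0.26 (SE 0.07; limma, adjusted p = 0.0212). The remaining 5 subunits, Orc1 to Orc5, did not pass, and all had fold changes above 0, from 0.04 for Orc3 to 0.15 for Orc2. Orc2 was higher on every mutant array, at 9.76, 9.76 and 9.78 against 9.53, 9.66 and 9.67 in control cells, with an adjusted p of 0.102. The 95% confidence intervals of these 5 reached at most 0.29 upwards and -0.12 downwards.

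Licensing factors bring the MCM ring to the origin, and 2 of 3 were lower in the mutant cells. Cdt1, which loads the ring, had 9.82, 9.85 and 9.75 in Dicer mutant cells and 10.20, 9.96 and 10.17 in control cells. Its log2 fold change was -0.31 (SE 0.08; limma, adjusted p = 0.0205). Cdc6, the ATPase that acts with it, had 8.44, 8.48 and 8.44 in mutant cells, against 8.76, 8.60 and 8.69 in control cells, a log2 fold change of -0.23 (SE 0.06; limma, adjusted p = 0.025). For both genes the lowest control array was replicate 2, and no mutant array reached it. Gmnn, geminin, the inhibitor of Cdt1, was not called, with a log2 fold change of -0.03 and a 95% confidence interval from -0.19 to 0.14.

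The MCM genes encode the ring of 6 subunits that unwinds DNA. Mcm6 had 10.56, 10.57 and 10.61 in Dicer mutant cells, against 10.76, 10.73 and 10.76 in control cells, with a log2 fold change of -0.17 (SE 0.05; limma, adjusted p = 0.0402). Mcm2 had 11.20, 11.21 and 11.18 in mutant cells and 11.45, 11.31 and 11.41 in control cells, with a log2 fold change of -0.19 (SE 0.06; limma, adjusted p = 0.0441). The arrays did not overlap for either gene, but both were close to the threshold, and Mcm6 lost its call whichever array was left out. Mcm3, Mcm4 and Mcm5 were not called (log2 fold changes -0.10, -0.12 and -0.09), although no mutant array of Mcm4 or Mcm5 reached a control array.

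Mcm7 stood on the other side of 0 from the other ring subunits. It had 11.73, 11.74 and 11.74 in Dicer mutant cells, against 11.58, 11.53 and 11.63 in control cells. Every mutant array was above every control array, and the log2 fold change was 0.16 with a 95% confidence interval from 0.03 to 0.28, but it did not pass (SE 0.05; limma, adjusted p = 0.0653). The log2 fold change of Mcm7 passed under 5 other settings (median centring, quantile normalization, array weights, a variance trend, and without dim genes), with limma's adjusted p between 0.00614 and 0.0455 and sizes of 0.16 to 0.19. Its interval lay wholly above those of Mcm2 and Mcm6, a comparison read from the intervals and not tested.

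Mcm7 also hosts miRNAs. RefSeq places 3 hairpins within its span (build GRCm38.p6), those of Mir106b, Mir93 and Mir25, which form the miR-106b-25 cluster, and only 1 other member, Pold1, spans a hairpin (Mir7053). The mature strands of the cluster that are known to be the main ones are shown because Dicer cuts them from these hairpins, with the seed (bases 2 to 8) in capitals.
mmu-miR-106b-5p (chr5:138165787-138165807, minus strand): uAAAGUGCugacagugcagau
mmu-miR-93-5p (chr5:138165574-138165596, minus strand): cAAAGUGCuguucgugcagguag
mmu-miR-25-3p (chr5:138165332-138165353, minus strand): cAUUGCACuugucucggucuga
The seed AAAGUGC is shared by mmu-miR-106b-5p and mmu-miR-93-5p, and mmu-miR-25-3p has the seed AUUGCAC. The array has probe sets annotated to the 3 loci. Mir106b had 6.45, 6.65 and 6.54 in Dicer mutant cells, against 6.38, 6.35 and 6.33 in control cells, with a log2 fold change of 0.20 (SE 0.07; limma, adjusted p = 0.0604). The mutant arrays were above the control arrays, as for Mcm7, and the call was missed by a similar margin. Mir93 and Mir25 were not called, and their arrays overlapped (log2 fold changes 0.13 and -0.06). Mir106b and Mir93 lay below the median brightness of the arrays, 7.51.

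Helicase activation was the group in which every gene was called lower. The 4 GINS subunits, Cdc45 and Mcm10 all fell, and the median log2 fold change was -0.35, as it was for the 3 RPA genes. Gins3 had 8.52, 8.49 and 8.49 in Dicer mutant cells, against 8.83, 8.90 and 8.93 in control cells, with a log2 fold change of -0.39 (SE 0.05; limma, adjusted p = 0.00161). Gins2 had 8.923, 9.004 and 8.880 in mutant cells and 9.453, 9.284 and 9.461 in control cells, with a log2 fold change of -0.46 (SE 0.07; limma, adjusted p = 0.00216), the largest fall among the 47 genes. Gins4 had 10.05, 10.11 and 10.15 in mutant cells and 10.40, 10.50 and 10.48 in control cells, with a log2 fold change of -0.36 (SE 0.06; limma, adjusted p = 0.00323). For each of these 3 genes the gap between the groups was wider than the spread within either of them. The remaining genes were Gins1 (log2 fold change -0.28), Cdc45, which tethers GINS to the ring (-0.34), and Mcm10, which acts when the helicase is switched on (-0.24), all without overlap between groups and with adjusted p of at most 0.0115. Averaged over the 6 genes, the levels relative to control were -0.37, -0.32 and -0.34 on the mutant arrays and -0.01, -0.03 and 0.04 on the control arrays.

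**Figure D3:**
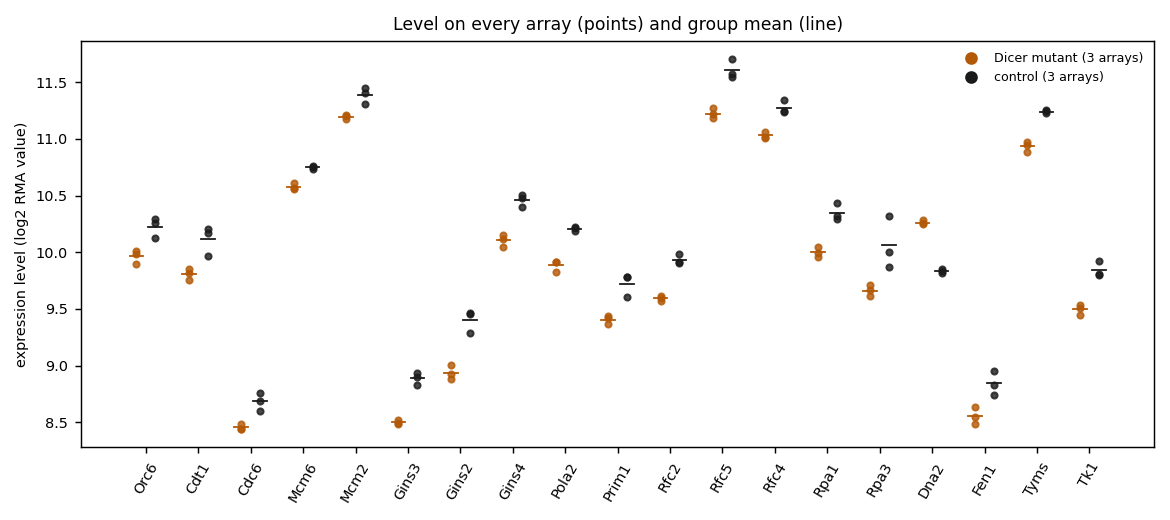
Level on every array (points, log2 RMA value) and group mean (short lines) for 19 replication genes, up to 3 called members per complex, with Dicer mutant left of control for each gene. The mutant points lie below the control points for every gene shown except Dna2, where they lie above.

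Of the listed polymerase and primase genes, the 2 called lower encode partners in the complex that starts each new strand. Pola2, the accessory subunit of polymerase alpha, had 9.92, 9.92 and 9.83 in Dicer mutant cells, against 10.19, 10.22 and 10.22 in control cells, a log2 fold change of -0.32 (SE 0.05; limma, adjusted p = 0.00364). Prim1, the catalytic primase subunit, had 9.42, 9.37 and 9.43 in mutant cells and 9.61, 9.78 and 9.78 in control cells, a log2 fold change of -0.32 (SE 0.07; limma, adjusted p = 0.00958). Neither gene overlapped between the groups. Their partners Pola1, the polymerase itself, and Prim2 had log2 fold changes of 0.06 and -0.09, with overlapping arrays. The 95% confidence interval of Pola1, from -0.09 to 0.21, lay above that of Pola2, from -0.45 to -0.20, although the difference between the genes was not tested. None of the 5 listed genes of polymerases delta and epsilon passed in limma, at the adjusted threshold or at an unadjusted p under 0.05. Their log2 fold changes ran from -0.17 for Pold1, the catalytic subunit of delta, to 0.09 for Pole, that of epsilon, and the arrays overlapped for all 5. Of subunits outside the list, Pold4 of delta was lower (log2 fold change -0.41; limma, adjusted p = 0.0197). Pole3 (-0.16) and Pole4 (0.09) of epsilon did not pass.

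The clamp loader was divided. Rfc2 had 9.59, 9.61 and 9.57 in Dicer mutant cells, against 9.91, 9.91 and 9.98 in control cells, with a log2 fold change of -0.34 (SE 0.05; limma, adjusted p = 0.00256). Rfc5 had 11.19, 11.27 and 11.22 in mutant cells and 11.70, 11.55 and 11.57 in control cells, with a log2 fold change of -0.38 (SE 0.06; limma, adjusted p = 0.00329). Rfc4 had 11.01, 11.07 and 11.02 in mutant cells and 11.25, 11.23 and 11.34 in control cells, with a log2 fold change of -0.24 (SE 0.06; limma, adjusted p = 0.0151). All 3 are small subunits, shared with the alternative loaders of the cell, and all were lower without overlap. Rfc1, the large subunit found only in the replicative loader, and the small subunit Rfc3 overlapped between the groups (log2 fold changes 0.03 and 0.04).

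Pcna, the clamp itself, was measured by 2 probe sets that differed in sign, and neither passed. The brighter had a log2 fold change of -0.05, with a 95% confidence interval from -0.20 to 0.11. The other had 0.09 (adjusted p = 0.416 in a limma fit over all single-symbol probe sets). The probe sets numbered next to the brighter belong mostly to genes on chromosome 19 (11 of 12), while those next to the other are on chromosome 2 (12 of 12), where RefSeq places Pcna. RefSeq lists a Pcna pseudogene, Pcna-ps2, on chromosome 19, and whether the brighter probe set reports Pcna alone was not tested.

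RPA coats the exposed single strands. Rpa1, the large subunit, had 10.04, 9.96 and 10.00 in Dicer mutant cells, against 10.32, 10.29 and 10.44 in control cells, with a log2 fold change of -0.35 (SE 0.06; limma, adjusted p = 0.00436). Rpa3, the small subunit, had 9.71, 9.61 and 9.66 in mutant cells and 10.00, 9.87 and 10.32 in control cells, with a log2 fold change of -0.40 (SE 0.11; limma, adjusted p = 0.0277). Rpa3 varied more than its partners among the control arrays (SD 0.23, n = 3), with control replicate 3 the highest. Rpa2 was lower on each mutant array, but missed the threshold (log2 fold change -0.10; adjusted p = 0.191).

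Okazaki fragment maturation was the only group with calls in both directions. Dna2, a nuclease and helicase that trims long flaps and also resects broken DNA ends, had 10.26, 10.25 and 10.28 in Dicer mutant cells, against 9.82, 9.85 and 9.84 in control cells. The log2 fold change was 0.43 (SE 0.05; limma, adjusted p = 0.000735), a signal at 134% of control, and the SD was 0.02 within each group. Fen1, the nuclease that removes the usual short flaps, had 8.55, 8.63 and 8.49 in mutant cells, against 8.83, 8.74 and 8.96 in control cells, with a log2 fold change of -0.29 (SE 0.07; limma, adjusted p = 0.0226). Lig1, the ligase that seals the nicks, was lower on every mutant array, at 10.41, 10.45 and 10.34 against 10.55, 10.57 and 10.57 in control cells. It narrowly missed the threshold (log2 fold change -0.17; limma, adjusted p = 0.0604).

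Among the genes of nucleotide supply, those that make thymidylate were lower. Tyms, thymidylate synthase, had 10.89, 10.95 and 10.97 in Dicer mutant cells, against 11.24, 11.25 and 11.23 in control cells, with a log2 fold change of -0.31 (SE 0.05; limma, adjusted p = 0.00406). Tk1, the thymidine kinase of the salvage route, had 9.51, 9.54 and 9.44 in mutant cells and 9.81, 9.92 and 9.80 in control cells, with a log2 fold change of -0.35 (SE 0.06; limma, adjusted p = 0.00413). The arrays of these genes did not overlap between groups. The Tk1 probe set used lies by number among probe sets of chromosome 8 (10 of 11 neighbours). The other Tk1 probe set, whose neighbours are on chromosome 11 as the gene is, had a log2 fold change of -0.59 (SE 0.09; limma, adjusted p = 0.00231). That value is from a fit over all single-symbol probe sets, in which the set used had a limma adjusted p of 0.00441. The ribonucleotide reductase subunits Rrm1 and Rrm2 were not called: Rrm1 had -0.01 (95% confidence interval from -0.14 to 0.12) and Rrm2 -0.07 (from -0.21 to 0.06) on the log2 scale. Dut, which removes dUTP, was lower on every mutant array by a small amount (-0.14; adjusted p = 0.153).

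**Figure D4:**
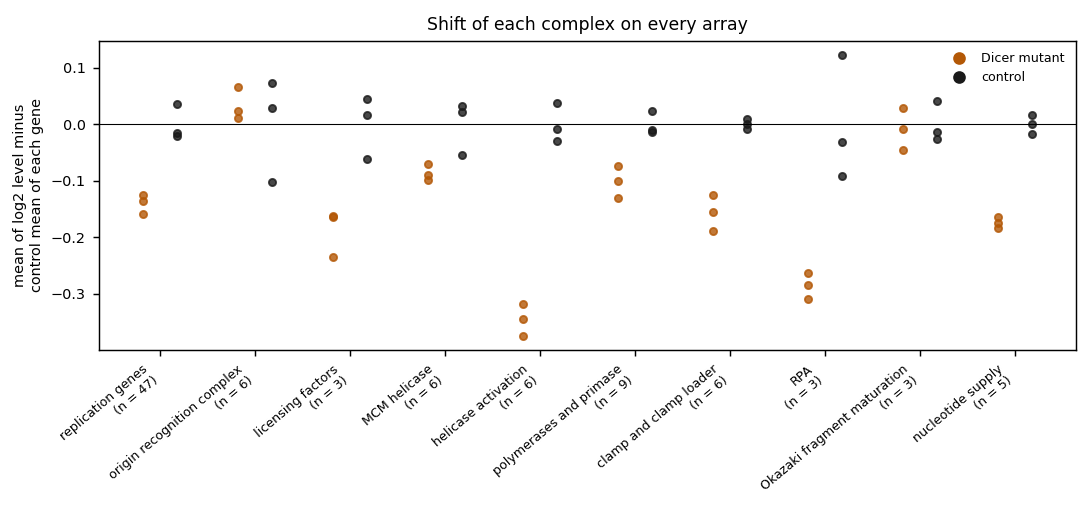
Mean over the genes of each complex of the log2 level minus the control mean of the gene, for every Dicer mutant array (left of each pair) and control array (right). The groups do not overlap for all 47 genes together or for 7 of the 9 complexes, while they overlap for the origin recognition complex and Okazaki fragment maturation.

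Genes with related roles that are not on the list were read from lists of their own. Of 25 other replication factors, 5 were lower, 0 were higher and 20 did not pass, with a median log2 fold change of -0.10; at an unadjusted p under 0.05, 0 were higher and 8 lower. Topbp1 and Ticrr, which bring Cdc45 to the ring, both had log2 fold changes of -0.28 (limma, adjusted p of 0.00756 and 0.00926). Pold4, the small subunit of polymerase delta, had -0.41, and Rnaseh2c, a subunit of the enzyme that removes ribonucleotides from DNA, -0.32. The share of lower genes, 20.0%, was near the 20.3% of all genes above the median brightness, of which 19.3% were higher.

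Of 15 measured genes of other nucleotide supply, 3 were lower (20.0%) and 4 higher (26.7%), beside 20.3% and 19.3% of genes above the median brightness. Dtymk, the kinase that acts on thymidylate from both routes, was lower with a log2 fold change of -0.48 (limma, adjusted p = 0.000822), as was Mthfd1 of the folate cycle (-0.27). Impdh1, of guanine nucleotide synthesis, and Cad, which begins pyrimidine synthesis, were both higher by 0.37 (limma, adjusted p of 0.0031 and 0.00332). In replication-coupled chromatin assembly 2 of 10 genes were lower (20.0%) and 0 higher in limma, beside 20.3% and 19.3% of genes above the median brightness. The lower genes were Uhrf1 (-0.25), a partner of the maintenance methyltransferase, and Asf1b (-0.28), a histone chaperone. The median log2 fold change of the 10 was 0.02. At an unadjusted p under 0.05, 1 was higher, the histone-binding Rbbp7 (0.21; adjusted p = 0.0849), and 3 were lower, the third being Chaf1a of the chromatin assembly factor (-0.13; adjusted p = 0.119).

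Of 29 measured regulators of the G1 to S transition, 10 were higher (34.5%, beside 19.3% of genes above the median brightness) and 6 lower (20.7%, near the 20.3% of those genes). E2f5 was higher by a log2 fold change of 0.89 and E2f2 lower at -0.44 (limma, adjusted p of 0.00013 and 0.00126), both members of the E2F family. Rb1, the retinoblastoma repressor of E2F, was higher by 0.37, and Mycn, a growth-promoting factor, by 0.46. In the replication checkpoint 4 of 10 genes were higher and 2 lower. The higher share was 40%, beside 19.3% of genes above the median brightness. The lower share of 20.0% was again near the 20.3% of those genes. The kinases Atr (0.39) and Wee1 (0.30) were among the higher, and the phosphatase Cdc25c (-0.59) and the clamp subunit Rad9a (-0.35) were the lower. Of 20 mitosis genes, 5 were lower and 1 higher, with a median of -0.11, beside -0.14 for the 47 replication genes. The lower share of 25% was close to the 20.3% of genes above the median brightness, and the higher share was 5%, beside 19.3%. The mitotic kinase Aurkb (-0.33), its partner Birc5 (-0.44) and Ube2c (-0.34) were among the lower genes, and the motor protein Kif23 (0.39) was the higher. Whether these lists differ from the replication genes was not tested.

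**Figure D5:**
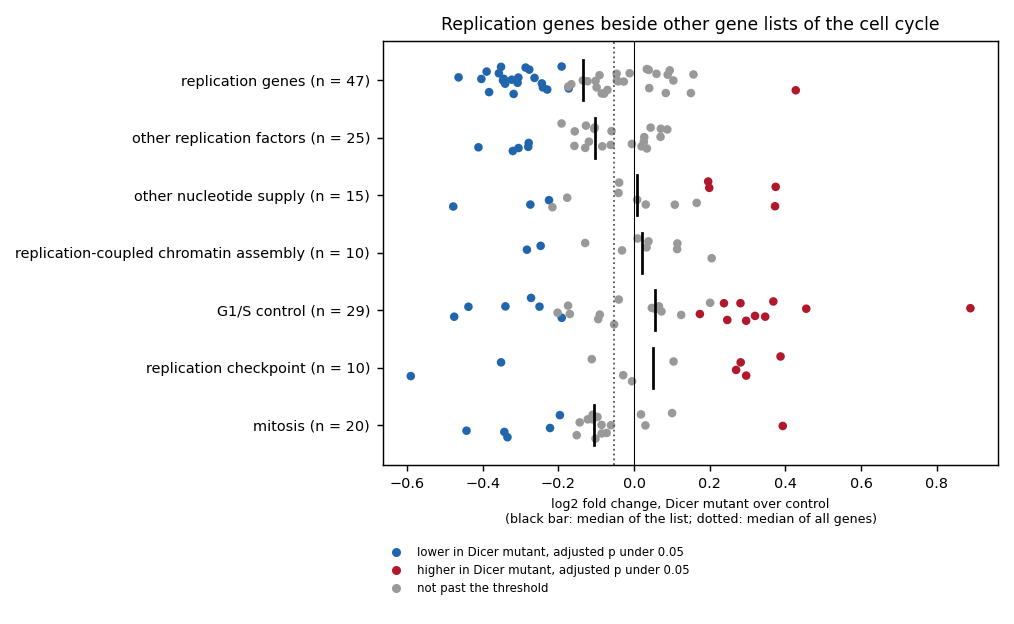
Log2 fold change, Dicer mutant over control, of the 47 replication genes and of 6 other lists (points, scattered vertically for legibility), with the median of each list (black bar) and of all genes (dotted line, -0.05). The medians of the replication genes, the other replication factors and the mitosis genes lie left of the dotted line, and those of the other 4 lists lie right of it.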

How the data were processed

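Total RNA of sorted cells was measured on 6 arrays. The authors deposited log2 expression values, and the submitters' processing notes name RMA and affy, without versions. The build of the array annotation was not stated in the labels. RMA brings all arrays to a common distribution, so a shift of every transcript would not be seen.

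Of 23309 probe sets, 20728 had a single symbol (20685 matched by ID to RefSeq, GRCm38.p6), 1174 had several and 1407 were not listed. The single-symbol sets named 19296 genes. No pair of arrays shared more than 22 values.

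Genotype was the only term of a per-gene model over both groups (lmFit and eBayes of limma 3.58.1, under R 4.3.3), two-sided, with Benjamini-Hochberg adjustment over all genes at 0.05. The fit was tested on simulated data, with 50 genes changed at each size. It called 10% of those changed by 0.25 and 66% of those changed by 0.5 on the log2 scale, with 8 false calls. Far fewer genes were changed there than were called in these data, so the shares do not carry over directly. Members that did not pass are thus not shown to be unchanged. Figures were drawn with matplotlib 3.10.9.

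The members and lists were chosen with earlier results of these data known. By rule, array values are given for up to 3 called members of a complex with the smallest p, and up to 4 called genes are named per related list. Orc2, Mcm7, Lig1, the miRNA loci, Rbbp7, Chaf1a, Pole3 and Pole4 were chosen for description after their values were seen. So were the markers Six2, Osr1, Cited1, Ret, Gfra1, Wnt11, Wnt9b, Emx2, Lhx1, Pax2, Krt18, Epcam, Hoxb7, Gata3, Krt8, Calb1 and Wnt7b.

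Alternatives covered the replicate block, single arrays removed, other scalings, dim genes removed, averaged probe sets, variance trend, array weights and a threshold of 0.01. The second probe set of Pcna and Tk1 was added after seeing the data. Its values come from a separate fit over the 20728 single-symbol probe sets, with the adjustment over these. Some genes of the related and marker lists are not reported here.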

Additional observations from a re-analysis of the deposited data

How the results depend on the processing

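Same-numbered arrays did not deviate together (r across genes of -0.19, -0.10 and -0.22), so the numbers show no pairing. With the replicate block 13 members were lower. At an adjusted p of 0.01, 12 members were lower, and 1367 genes were higher and 1423 lower. With single arrays left out, members lower numbered 13 to 19, and the count of all genes lower in Dicer mutant was 1764 (without mutant replicate 1) to 2973. Higher members numbered 2 after quantile normalization, median centring and array weights, through Mcm7, and 3 with dim genes left out and with a variance trend, through Mcm7 and Orc2. Under the other settings, thresholds and blocks aside, 19 to 23 members were lower, and the members' median stayed below 0 under every setting, from -0.16 to -0.10. Some uncalled members changed sign. The log2 fold change of Gmnn ran from -0.0852 to 0.0099 with an array left out and was 0.0061 after quantile normalization and 0.0068 after median centring. The log2 fold change of Rrm1 ran from -0.0444 to 0.0107 with an array left out and was 0.0259 and 0.0223 under these scalings. With an array left out, the log2 fold change of Pold3 ran from -0.109 to 0.0432 and the log2 fold change of Rfc3 from -0.0117 to 0.096. The log2 fold change of Pcna was 0.024 with the mean of its probe sets and 0.0935 with its second. The causes were not tested. The number of arrays limits the precision.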
